A study of Homo sapiens with 3 samples.

Results

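The genes described here are the enzymes, receptor and inhibitors that control protein breakdown outside the cell: the plasminogen activators PLAU and PLAT, the urokinase receptor PLAUR, the serpin SERPINE2, the matrix metalloproteinases MMP2 and MMP7, and the tissue inhibitors of metalloproteinases TIMP1, TIMP2 and TIMP3. They were taken by name and not by a measured value: all 13 probes of these 9 genes, of 18852 genes named on the array. Urokinase (uPA, from PLAU) and tissue plasminogen activator (tPA, from PLAT) cut plasminogen into plasmin, a broad protease that dissolves fibrin, degrades matrix and activates some pro-MMPs. PLAUR holds urokinase at the cell surface, serpins trap the activators in inactive complexes, and TIMPs block the active site of MMPs. In lung adenocarcinoma the system is known for its part in invasion and matrix turnover.

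The resistant group was 2 sublines of HCC827, HCC827-BR1 and HCC827-BR2, called clone 1 and clone 2, which were set up from single clones after 3 to 4 months in rising concentrations of BIBW2992 (afatinib, which binds the EGFR and ERBB2 kinases irreversibly) that reached 2 µM. The other group was the parental line HCC827, a human lung adenocarcinoma line driven by mutant EGFR and sensitive to the drug. Total RNA of each line went onto 1 Illumina HumanHT-12 v3 array, a bead array with 48803 probes, so there were 2 resistant arrays and 1 parental array. Whether the clones were still under drug at harvest is not stated, and no unselected clone was labelled, so effects of selection, of cloning, of culture time and of remaining drug cannot be told apart.

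Signals are deposited intensities before background subtraction, and a probe was taken as above background past a signal of 66.2 in clone 1, 71.3 in clone 2 and 70.2 in parental cells; between 33.4% and 34.4% of probes passed. Among 576 probes for receptors of smell and taste and other genes assumed silent, between 3.82% and 3.99% passed as well, so a probe just past its threshold may not be expressed. Differences are resistant minus parental on the normalized log2 scale, and the brightest probe stands for its gene. A gene is called where limma's Benjamini-Hochberg adjusted p over 11803 genes was under 0.05. The test takes its error only from the spread between the 2 clones, that of the gene itself and that pooled over all genes. Epithelial and lung adenocarcinoma markers were called lower in 5 of 7 genes above background, with summed signals over all 8 markers of 10547 in clone 1 and 7628 in clone 2, against 54384 in parental cells. KRT18 was below background on all 3 arrays on both of its probes. Fibroblast markers were above background for 1 of 8 genes, PDGFRA, and endothelial markers for 1 of 6, PECAM1. Leukocyte markers were above background for 4 of 7 genes, with PTPRC and CD3E below it on every array. CD14 and CSF1R were called lower, at log2 differences of -1.56 and -2.04, and the median of the 4 was -0.77. Summed leukocyte signals, most of them from CD68, were 7400 and 4545 in the clones and 6018 in parental cells. The part of these marker differences in the results below was not tested.

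Across the 9 genes, 1 stood well above its parental level in both clones and 1 well below it, and the others lay closer to it, differed between the clones or were near background. SERPINE2, which encodes the protease inhibitor protease nexin-1, was 14.3-fold higher in the resistant clones and was called. MMP7 was 4.59-fold lower on average, and PLAUR and PLAU were 2.47-fold and 2.03-fold lower, none of them called. TIMP1 and TIMP2 were slightly higher and not called, PLAT and MMP2 were at the edge of background, and TIMP3 was below background on all 3 arrays. Of the 9 genes 8 had a probe above background on at least 1 array. Limma called 1 of these 8, against 5.85% of all 11803 genes, and in both clones 1 of 8 was at least 2-fold higher and 1 at least 2-fold lower than in parental cells, against 4.72% and 5.32% of all genes. Over so few genes these counts cannot be set apart from the shares of all genes. As fewer expressing cells and less RNA per cell give the same signal, they cannot be told apart here.

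**Figure D1:**
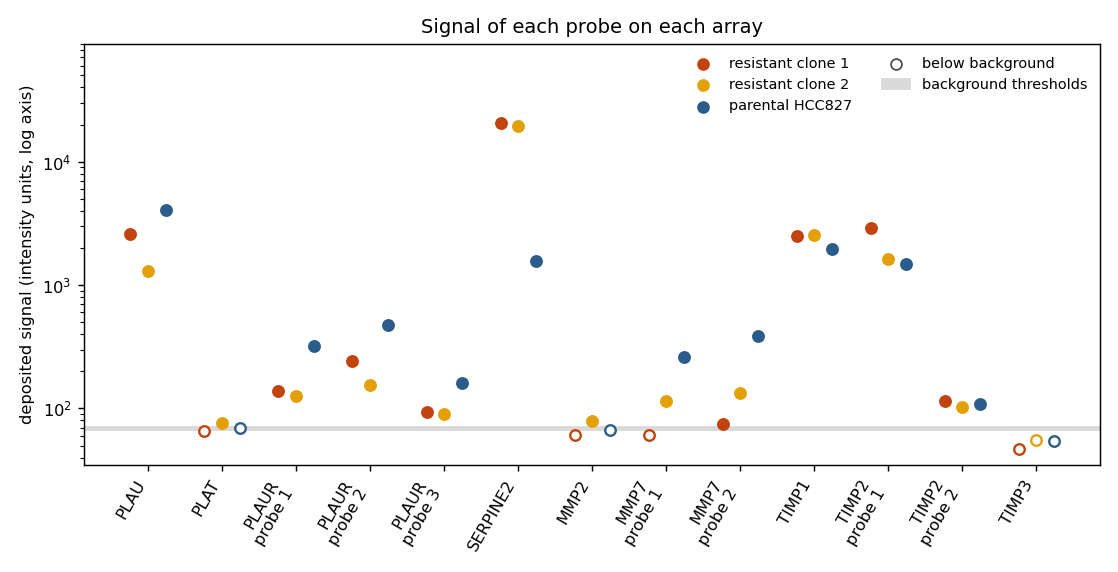
Deposited signal of each of the 13 probes (x axis) in resistant clone 1, resistant clone 2 and parental HCC827 cells on a log axis, 1 array each; open circles are below background and the grey band spans the 3 background thresholds (66.2 to 71.3). SERPINE2 stands at 20782 and 19307 in the clones and at 1576 in parental cells, the PLAU, PLAUR and MMP7 probes are lower in both clones than in parental cells, and TIMP3 lies below the band throughout.

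PLAU, the gene of urokinase, had signals of 2594 in clone 1 and 1296 in clone 2, against 4055 in parental cells. Parental cells were the highest and clone 2 the lowest. The log2 difference was -0.49 in clone 1 and -1.55 in clone 2, which is 1.41-fold and 2.93-fold lower. The mean of -1.02 (SE 0.48) was about the size of the gap between the clones, and limma did not call it (adjusted p = 0.316).

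PLAT, the gene of tissue plasminogen activator, gave signals of 65.6 in clone 1 and 75.6 in clone 2, against 69.6 in parental cells. It exceeded the threshold in clone 2 alone. It therefore entered the test only through clone 2, and the mean log2 difference of 0.11 was not called (adjusted p = 0.867). Of the activators only urokinase thus had signals clearly above background on all 3 arrays.

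PLAUR, the receptor that anchors urokinase on the cell surface, was measured above background on all 3 arrays by each of its 3 probes. The brightest had signals of 242 in clone 1 and 155 in clone 2, against 473 in parental cells. Both clones lay below parental cells on each probe, but the 3 probes read the same RNA and are not independent. The share of all genes with both clones below parental cells was not counted. On the brightest probe the log2 difference was -0.91 in clone 1 and -1.70 in clone 2. A second probe annotated to the same transcript gave -1.26 and -1.46, and the probe annotated to another transcript gave -0.85 and -0.98. The size of these 6 differences varied between probes as well as between clones. The mean on the brightest probe was -1.30 (SE 0.40), with an unadjusted limma p of 0.0216 that did not pass after adjustment (adjusted p = 0.159). An unadjusted p under 0.05 was reached by 20.7% of all genes. PLAUR missed the 2-fold mark in clone 1 and passed it in both clones where its probes were averaged, at -1.01 in clone 1 and -1.38 in clone 2.

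SERPINE2 encodes a serpin that inhibits thrombin, urokinase, tissue plasminogen activator and plasmin, and it binds heparan sulfate at the cell surface. Its signals were 20782 in clone 1 and 19307 in clone 2, against 1576 in parental cells. The clones lay close together and far above parental cells. The log2 differences were 3.92 and 3.74, or 15.2-fold in clone 1 and 13.4-fold in clone 2. SERPINE2 rose by a mean of 3.83 (SE 0.27, limma adjusted p = 0.00517), the 42nd highest of 11803 genes, and over the alternatives its adjusted p ranged between 0.00125 and 0.0118. It was above background on all 3 arrays, so this is a measured ratio and not a bound. By Euclidean distance between the differences of the 2 clones over these 3 arrays, the genes nearest to it were EFHB at 0.0318, PPARGC1A at 0.0378 and NUDT11 at 0.0519 log2 units.

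SERPINE2 had 2 windows (GRCh38.p14), both before starts inside the RefSeq gene, whose upstream end at 224039286 had no window. This gene was taken because it carries the largest difference of the 9. The 250 bases before the start that lies further inside the gene are shown. Of the 2 windows it is the one that holds the letters described below, so their count comes from a window picked with them in view. The region is chr2:224031479-224031728 on the minus strand, and capitals mark the letters CCAAT or, on the other strand, ATTGG.
SERPINE2: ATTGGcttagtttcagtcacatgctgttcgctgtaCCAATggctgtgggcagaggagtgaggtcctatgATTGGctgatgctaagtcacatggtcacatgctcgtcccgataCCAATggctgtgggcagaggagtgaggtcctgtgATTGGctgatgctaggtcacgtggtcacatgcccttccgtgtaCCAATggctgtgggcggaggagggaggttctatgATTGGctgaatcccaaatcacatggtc
The letters occur 7 times in this window, 3 times as CCAAT and 4 times as ATTGG, with the 3 CCAAT copies 77 bases apart. The ATTGG copies are 69 or 77 bases apart, and the letters around the copies recur with few changes. The 7 copies thus belong to a repeated stretch. Among 35116 such windows of 250 bases before RefSeq starts, 32.0% hold the letters at least 1 time on either strand and 7 hold them 7 or more times. The other SERPINE2 window, chr2:224038641-224038890, which lies upstream, holds none and has a GC content of 75.2%, against 53.2% for the window shown. CCAAT boxes are a common promoter element bound by the factor NF-Y. The letters were searched after the sequence had been seen, the array does not say from which start the transcripts came, and a match is a description of the window.

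**Figure D2:**
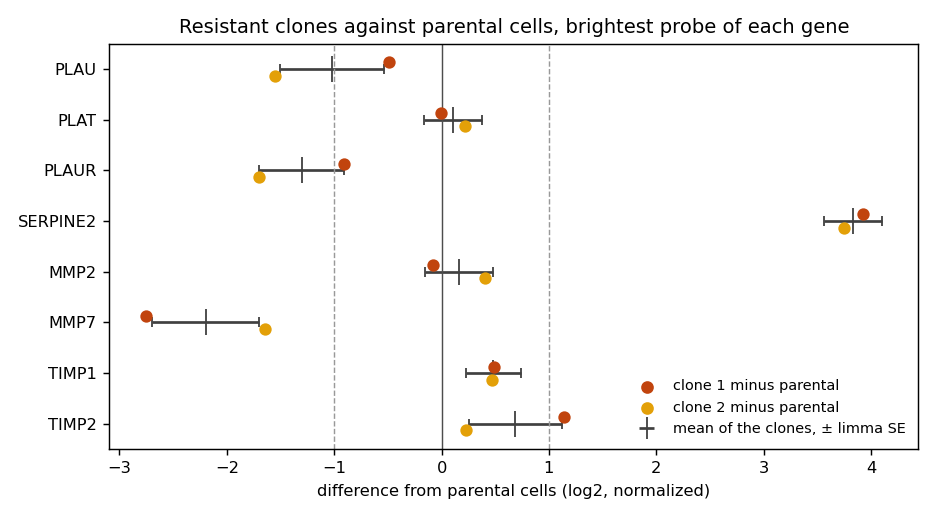
Log2 difference from parental cells for the 8 genes above background on at least 1 array, brightest probe of each, with 1 point per resistant clone, a bar at the mean of the clones and the limma SE. Dashed lines mark 2-fold: SERPINE2 lies at 3.92 and 3.74, MMP7 at -2.75 and -1.64, and the points of TIMP1 lie together at 0.49 and 0.47.

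Among the metalloproteinases, MMP7, which encodes matrilysin, a small secreted protease made by epithelial cells, was lower in both clones on both of its probes. Its brighter probe had signals of 74.3 in clone 1 and 134 in clone 2, against 390 in parental cells. Clone 1 was the lowest, just above its threshold, and parental cells were the highest. The log2 differences of -2.75 and -1.64 correspond to 6.73-fold lower in clone 1 and 3.13-fold lower in clone 2. The other probe had signals of 60.7 and 114 in the clones and 262 in parental cells. On that probe MMP7 was below background in clone 1. There it was at least 5.23-fold lower on the background-corrected scale, at least 3.61-fold without background correction and at least 3.35-fold with an offset of 50. In clone 2 it was 2.50-fold lower on that probe. The mean difference on the brighter probe was -2.20 (SE 0.50), the 226th lowest of 11803 genes, and limma did not call it (adjusted p = 0.0841, with a range of 0.0574 to 0.104 across alternatives). Nearest to MMP7 in the differences of the 2 clones were ENC1 at 0.20, ARMCX1 at 0.22 and IFIH1 at 0.23 log2 units.

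The promoter windows of MMP7 and PLAUR are shown because both genes were lower in both clones on every probe and both windows hold the AP-1 letters TGANTCA. Windows were searched for 6 of the 9 genes, PLAU, PLAUR, SERPINE2, MMP7, TIMP1 and TIMP3, with 8 windows in all. No windows of the remaining genes were searched, so nothing is said about their letters. Capitals mark the AP-1 letters, the CCAAT box and the TATA box (TATAAA) on either strand in the 250 bases before the start, at chr11:102530748-102530997 on the minus strand for MMP7 and chr19:43670170-43670419 on the minus strand for PLAUR (GRCh38.p14).
MMP7: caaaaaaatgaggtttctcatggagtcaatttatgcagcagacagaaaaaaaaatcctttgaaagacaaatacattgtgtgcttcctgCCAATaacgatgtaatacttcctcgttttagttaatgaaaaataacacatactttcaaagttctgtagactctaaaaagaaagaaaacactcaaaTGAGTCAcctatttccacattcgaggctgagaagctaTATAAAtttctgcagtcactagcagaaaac
PLAUR: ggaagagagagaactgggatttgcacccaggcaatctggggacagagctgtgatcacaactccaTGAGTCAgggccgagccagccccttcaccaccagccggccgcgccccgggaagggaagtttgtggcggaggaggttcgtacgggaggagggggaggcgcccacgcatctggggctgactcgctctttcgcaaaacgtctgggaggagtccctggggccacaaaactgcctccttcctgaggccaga
In MMP7 the AP-1 letters begin 67 bases and the TATAAA letters 30 bases before the start, and in PLAUR the AP-1 letters begin 186 bases before it. The other 6 windows hold no TGANTCA, and 6.57% of all 35116 windows hold it. Among those 6 are the windows of PLAU, which was also lower in both clones on its single probe. Neither PLAU window lies before the upstream end of its RefSeq gene. TATAAA occurred in the MMP7 window alone among the 8 and in 10.7% of all windows. AP-1 factors include dimers of FOS and JUN proteins, and whether they bind these windows was not tested. The letters were chosen with the sequences in view, and their absence from a window says only that they are not in those 250 bases.

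MMP2, the gene of gelatinase A, a type IV collagenase made mostly by stromal cells, had signals of 61.1 in clone 1 and 78.9 in clone 2, against 66.9 in parental cells. It was above background in clone 2 alone, and the clones lay on either side of parental cells. The mean log2 difference of 0.16 was not called (adjusted p = 0.824).

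Of the inhibitors of metalloproteinases, TIMP1 and TIMP2 were well above background and TIMP3 was not. TIMP1, a secreted inhibitor that binds the proenzyme of MMP9, had signals of 2492 in clone 1 and 2528 in clone 2, against 1960 in parental cells. Both clones were above parental cells by nearly the same amount, with log2 differences of 0.49 and 0.47 (SD between the clones 0.0146). The mean of 0.48 (SE 0.26) was not called (adjusted p = 0.373); the SE draws on the spread of all genes as well as on that of this gene.

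TIMP2, which inhibits MMP2 and also takes part in its activation at the cell surface, had signals of 2927 in clone 1 and 1624 in clone 2, against 1494 in parental cells on its brighter probe. Clone 1 was the high array and clone 2 lay near parental cells. The log2 differences were 1.14 and 0.23, with a mean of 0.69 (SE 0.43) that was not called (adjusted p = 0.446). Its second probe had signals of 114 in clone 1 and 102 in clone 2, against 108 in parental cells, and log2 differences of 0.27 and 0.00082. The 2 probes thus kept the order of the clones but differed in size, and the 2-fold difference of clone 1 rests on the brighter probe.

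TIMP3, a matrix-bound inhibitor that also blocks several ADAM proteases, had signals of 46.7 in clone 1 and 55.7 in clone 2, against 54.4 in parental cells on its single probe. All 3 were below background, so no difference is given.

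Between the clones, PLAU and MMP7 were at least 2-fold apart, 2 of 8 genes against 3.80% of all genes, and in opposite directions. PLAU was 2.08-fold lower in clone 2 than in clone 1, and MMP7 was 2.15-fold higher in clone 2 on its brighter probe and 2.41-fold higher on the other. TIMP2 came next, 1.88-fold lower in clone 2, while SERPINE2 and TIMP1 differed by -0.18 and -0.021 on the log2 scale. With 1 array per clone these differences have no replicate check. The gap for MMP7 shrank to between 0.76 and 0.82 on the log2 scale without background correction, with a larger offset or in the authors' processed values, where clone 1 at 74.3 lies close to background.

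**Figure D3:**
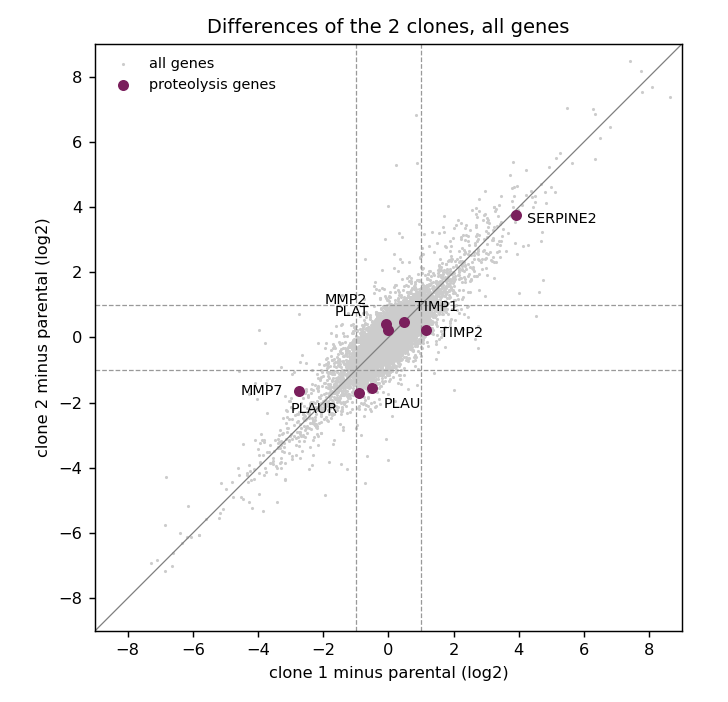
Log2 difference from parental cells in clone 1 (x axis) and clone 2 (y axis) for 11803 genes in grey and the 8 measured proteolysis genes in purple, with dashed lines at 2-fold and a solid line of equal difference. Both axes share the same parental array. SERPINE2 lies at the upper right beside the line, MMP7 below -1 on both axes, and PLAU and TIMP2 pass a dashed line in 1 clone only.

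Other genes of the same system were described by 4 lists arranged by role. Of 19 genes of the plasmin system on the array, 12 were above background on at least 1 array, and limma called 1 lower and 0 higher, against 3.14% and 2.70% of all genes, with 2 of the 12 at an unadjusted p under 0.05, against 20.7% of all genes. Their median log2 difference was -0.0863, against 0.0136 over all genes. SERPINA5, the protein C inhibitor, which also inhibits urokinase, had signals of 85.3 in clone 1 and 125 in clone 2, against 369 in parental cells. Both clones lay below parental cells, and SERPINA5 fell by 2.04 on the log2 scale (SE 0.37, adjusted p = 0.0462), a call that was lost at an adjusted p of 0.0537 with the larger offset and of 0.0624 with probes above background on all 3 arrays. F3, the gene of tissue factor, which starts coagulation, had signals of 559 in clone 1 and 1600 in clone 2, against 1585 in parental cells, so that clone 1 alone was low. Its second probe gave the same order, a log2 difference of -1.19 for clone 1 and of 0.21 for clone 2, and the mean on the first was not called (adjusted p = 0.640). ENO1, a glycolytic enzyme that also binds plasminogen at the cell surface, differed by 0.28 (adjusted p = 0.601).

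Of 21 other MMPs 13 were below background on every array, and limma called 0 of the remaining 8, of which 2 had an unadjusted p under 0.05, against 20.7% of all genes. MMP1, the interstitial collagenase, had signals of 81.8 in clone 1 and 105 in clone 2, against 55.6 in parental cells, where it was below background. It was at least 1.61-fold higher in the clones on the background-corrected scale, at least 1.34-fold with an offset of 50, and not called (adjusted p = 0.103). MMP24, a membrane-type MMP, differed by 0.57 (adjusted p = 0.339). The median of the 8 was 0.0837.

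Among 7 inhibitors, activators and partners of MMPs on the array, 6 were above background, and limma called 1 lower and 0 higher, against 3.14% and 2.70% of all genes, with 3 of the 6 at an unadjusted p under 0.05, against 20.7%, and a median of 0.58. LCN2, the lipocalin that forms a complex with MMP9, had signals of 400 in clone 1 and 353 in clone 2, against 7327 in parental cells. Both clones were far below parental cells, and LCN2 fell by 4.24 on the log2 scale (SE 0.27, adjusted p = 0.00440). BSG, the gene of basigin, a surface glycoprotein that induces MMPs, differed by 0.47 (adjusted p = 0.431).

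In the ADAM and ADAMTS families, metalloproteinases that shed surface proteins or cut proteoglycans, 15 of 27 genes were above background. Limma called 3 of them higher and 0 lower, against 2.70% and 3.14% of all genes. Of the 15, 6 had an unadjusted p under 0.05, against 20.7% of all genes, and the median was 0.29. ADAM19, a membrane-anchored sheddase, had signals of 245 in clone 1 and 279 in clone 2, against 51.5 in parental cells, where it was below background. It therefore entered the test only through the clones. Its call as higher (limma adjusted p = 0.00639) rests on a parental value below background. The rise was at least 5.72-fold on the background-corrected scale, at least 3.91-fold without background correction and at least 3.62-fold with an offset of 50. Its second probe was below background on all 3 arrays. ADAMTS1, a secreted protease of aggrecan and versican, had signals of 253 in clone 1 and 388 in clone 2, against 75.0 in parental cells, and rose by 2.66 (SE 0.36, adjusted p = 0.0213). ADAMTS9, of the same family, had signals of 355 in clone 1 and 496 in clone 2, against 107 in parental cells, and rose by 2.40 (SE 0.31, adjusted p = 0.0200). In each of these 3 genes, which are named because they were called, clone 2 was higher than clone 1. ADAM15, the brightest of the family under 2-fold, differed by -0.32 (adjusted p = 0.624).

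**Figure D4:**
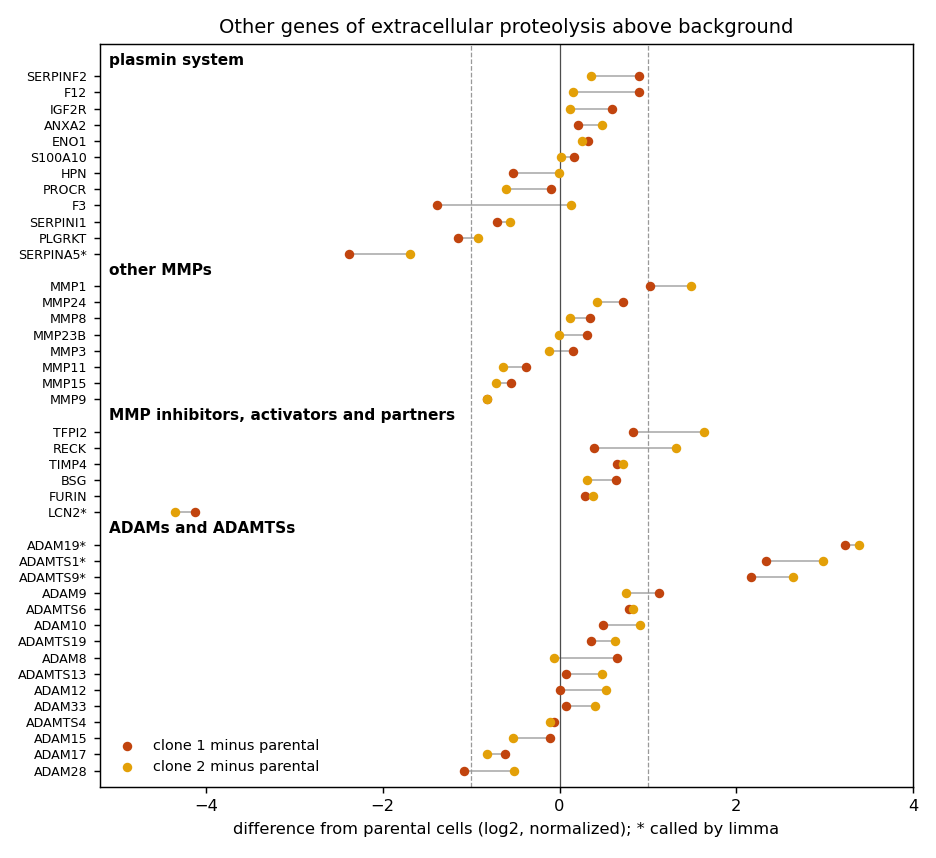
Log2 differences from parental cells in clone 1 and clone 2, joined by a grey line, for the genes of the 4 lists that were above background on at least 1 array; asterisks mark limma calls and dashed lines 2-fold. LCN2 stands apart at -4.13 and -4.35 and SERPINA5 at -2.38 and -1.69, ADAM19, ADAMTS1 and ADAMTS9 lie above 2 in both clones, and most others lie between the dashed lines.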

How the data were processed

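Biotin-labelled cRNA was hybridised to Illumina HumanHT-12 v3 arrays, per the labels. The authors deposited a non-normalized table of linear intensity and a processed table of linear intensity. The software behind either table was not given in the sources used here. Columns of the processed table share 1 distribution, with medians of 59.6 to 59.7, and each correlates with its non-normalized column (log2) at r of 0.99995 or more. Bead numbers, control probes and detection p-values were not used here.

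Intensities were background-corrected (normexp, offset 16), log2-transformed and quantile-normalized in limma 3.58.1 (R 4.3.3). Background was the mode of each array's log2 signals with the SD of the values below it, and a probe exceeded it at a one-sided p under 0.01. Of 48803 probes, 28098 had 1 gene in the platform annotation, 13 had several and 20692 had none. The gene of 28059 probes matched RefSeq (GRCh38.p14). Named probes above background on at least 1 array entered (15634), the brightest per gene was kept (11803 genes), and lmFit and eBayes compared 2 resistant arrays with 1 parental array (1 residual degree of freedom, prior 4.08). The labels do not say that the clones arose independently, and the p-values measure only the spread between them, of the gene and pooled over genes. Where a group was below background, "at least" folds use the lowest normalized signal above background there, or the probe's own if higher. The number of arrays limits the precision.

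The genes, lists and rules were chosen with earlier results of these data known. Named were all 9 genes and, from each list, called genes, genes 2-fold off in both clones or 2-fold apart between them, and the brightest under 2-fold; for the 3 genes farthest from parental cells, the 3 genes nearest in the differences of both clones, where those of PLAUR were CLIP4, SEL1L3 and DNAI4. Some listed genes without a named probe were not analysed here. Probe sequences were not used, so a match of a probe to another gene was not checked. Alternatives were other background corrections, scalings, filters, probe rules and spreads, and leaving out a clone.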

Additional observations from a re-analysis of the deposited data

How the results depend on the processing

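SERPINE2 was called, and PLAU, PLAUR, MMP7, TIMP1, TIMP2, PLAT and MMP2 were not, in each of the 9 alternatives with a test in which they could be fitted, with no change of direction (PLAT and MMP2 had no value with probes above background on all 3 arrays). The number of these genes at least 2-fold apart between the clones was 1 in place of 2 with an offset of 50, without background correction and in the authors' processed table. With probes above background on all 3 arrays, 274 in place of 690 of all genes were called, and the cause was not tested. Of the other lists, 3 in place of 5 genes were called with that filter. ADAM19, below background in parental cells, could not enter it, and SERPINA5 had a limma adjusted p of 0.0624. With clone 1 or clone 2 left out, which allows no test, 3 to 4 of the 8 genes were at least 2-fold off parental cells in the clone that remained, against 2 in both: without clone 1, 4 (1 higher, 3 lower), and without clone 2, 3 (2 higher, 1 lower). The parental array could not be left out. Dim probes limit PLAT, MMP2, TIMP3 and MMP7 in clone 1. No paired analysis was possible because there was only 1 parental array.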
